A study of Mus musculus with 10 samples.

Results

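The 10 genes described here are the 5 subunits of the transcription factor NF-kB (Nfkb1, Nfkb2, Rel, Rela and Relb) and 5 of its target genes, most of which feed back on the pathway (Nfkbia, Tnfaip3, Bcl3, Birc3 and Icam1). They are a list of names fixed for the pathway, drawn up with earlier results of these data known, and all 10 were among the 17495 genes that passed the expression filter, of 51707 genes matched. The 10 libraries were made from epithelial cells sorted out of pancreatic ductal adenocarcinomas that grew in the pancreas of mice. In both groups the tumour cells were T6-LOH organoids of the KPC model, a genetic mouse model of this cancer, and they were transplanted together with pancreatic stellate cells (PSCs), fibroblast-like cells of the pancreas. The PSCs were the control line PSC4 ROSA in 5 libraries (Egfr WT PSC) and the knockout line PSC4 EGFR KO B4 in the other 5 (Egfr KO PSC). The series names NSG hosts, which lack T, B and natural killer cells, and the strain label of every library reads C57BL/6J. The sources used here give neither the time after transplantation nor the age of the mice. Because the PSCs, and not the sorted epithelial cells, carried the knockout, the Egfr level of these libraries does not check the labels. A single knockout line was used, and the loss of Egfr and other properties of that line cannot be told apart. Whether every library stands for its own mouse is not said in the labels, and each p-value measures the spread between these libraries.

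NF-kB proteins bind DNA as pairs of subunits, and IkB proteins hold them in the cytoplasm of resting cells. Signals from receptors for TNF, IL-1 and microbial products activate a kinase complex that marks IkB for destruction, after which the dimers enter the nucleus and switch on their targets. Several targets encode inhibitors of the same pathway, which makes their RNA a common readout of its activity, and in pancreatic carcinoma the pathway is known for its part in inflammation and cell survival.

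The promoter sequences of the members were searched for 2 NF-kB motifs, and 4 of them are printed for the 2 targets that varied most in level among libraries or carry the highest level (Tnfaip3 and Nfkbia) and the 2 targets whose groups did not overlap (Icam1 and Birc3). Each is the 200 bases before an annotated transcription start, 5′ to 3′ on the strand of the gene, from RefSeq promoters of GRCm38.p6, which is not the build of the quantification. Capitals mark matches to the kappa-B consensus, a motif of 10 bases, and to GGAAATTCC, searched on both strands. The 2 motifs can overlap. The windows are chr12:55492648-55492847 (minus strand) for Nfkbia, chr10:19015411-19015610 (minus strand) for Tnfaip3, chr9:21015740-21015939 (plus strand) for Icam1 and chr9:7873171-7873370 (minus strand) for Birc3.
Nfkbia: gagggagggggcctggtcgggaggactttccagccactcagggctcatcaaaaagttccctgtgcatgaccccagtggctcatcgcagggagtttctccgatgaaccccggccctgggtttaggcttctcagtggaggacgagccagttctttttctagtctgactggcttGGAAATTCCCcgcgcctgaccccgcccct
Tnfaip3: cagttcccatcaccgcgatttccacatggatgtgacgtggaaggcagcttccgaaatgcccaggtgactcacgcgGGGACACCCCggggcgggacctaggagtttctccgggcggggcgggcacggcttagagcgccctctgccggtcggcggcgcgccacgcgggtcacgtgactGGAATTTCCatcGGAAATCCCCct
Icam1: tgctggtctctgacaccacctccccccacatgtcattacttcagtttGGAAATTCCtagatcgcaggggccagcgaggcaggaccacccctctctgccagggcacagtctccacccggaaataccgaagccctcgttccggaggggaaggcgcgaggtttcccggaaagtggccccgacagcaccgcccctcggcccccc
Birc3: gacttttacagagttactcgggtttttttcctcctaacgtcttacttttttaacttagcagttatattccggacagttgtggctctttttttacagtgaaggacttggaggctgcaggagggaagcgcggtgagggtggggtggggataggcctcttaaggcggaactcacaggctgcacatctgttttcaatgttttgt
In Nfkbia the kappa-B match covers bases 29 to 20 before the start and contains the GGAAATTCC match. In Tnfaip3 the kappa-B matches lie 125 to 116 and 12 to 3 bases before the printed start, and GGAAATTCC lies between them at bases 24 to 16. GGAAATTCC and the kappa-B match at 12 to 3 were found on the strand opposite to the printed one. Tnfaip3 has another annotated start, with the window chr10:19011964-19012163, where neither motif was found. In Icam1 only GGAAATTCC was found, 153 to 145 bases before the start, and in Birc3 neither motif was found in the 250 bases searched. RefSeq promoters were matched for 8 of the 10 genes. The kappa-B consensus was in the 250 bases before the start of 4 of these 8 genes (Nfkb2, Nfkbia, Rel and Tnfaip3) and of 2382 of all 32851 promoters in the table (7.25%). GGAAATTCC was in 3 of the 8 (Icam1, Nfkbia and Tnfaip3) and in 94 promoters (0.286%). The 8 genes had 11 promoters, and a gene was counted if any of its promoters matched. Counts of genes and shares of promoters are therefore unlike units. A match describes the letters and does not show that a factor binds there.

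Icam1, the adhesion molecule that leukocyte integrins bind, differed most between the groups, with a mean of 181 ± 38.9 CPM (counts scaled to a fixed library total) in the Egfr WT PSC libraries and 109 ± 19.7 CPM in the Egfr KO PSC libraries (SD, n = 5 each). Birc3, a ubiquitin ligase that protects cells from death, had a mean of 37.5 ± 1.82 and 31.8 ± 2.39 CPM. These were the 2 members whose groups did not overlap, and 0.743% of all genes tested had every Egfr KO PSC library below every Egfr WT PSC library. Rela, the main activating subunit, had the smallest range over the 10 libraries (1.21-fold from lowest to highest), and Nfkb1, Relb, Nfkbia, Tnfaip3 and Bcl3 were high in the same 2 libraries, 1 in each group. None of the 10 genes passed the threshold of edgeR's quasi-likelihood test (adjusted p under 0.05 over 17495 genes), and neither did any other gene (0%), with a smallest adjusted p of 0.105. At an unadjusted p under 0.05 edgeR gave 1426 genes (8.15%), and DESeq2 called 129 of 21855 genes at an adjusted p under 0.05.

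**Figure D1:**
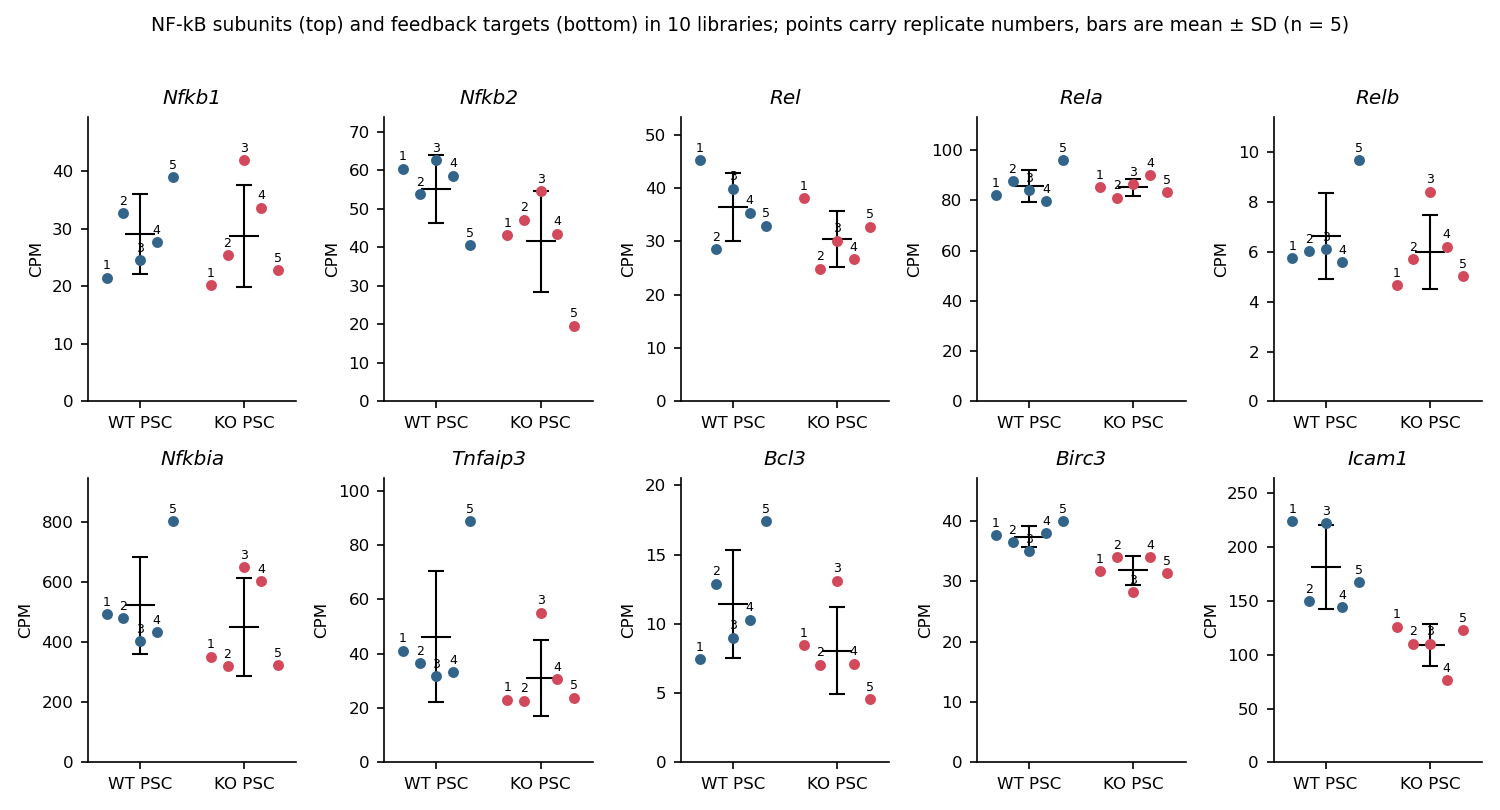
CPM of each member (vertical axes, each from 0) in the 5 libraries with Egfr WT PSCs (blue) and the 5 with Egfr KO PSCs (red), numbered by replicate, with mean and SD bars. Icam1 and Birc3 are the 2 panels without overlap, and WT replicate 5 and KO replicate 3 stand high for Relb, Nfkbia, Tnfaip3 and Bcl3.

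The summed level per library ran from 39533698 to 53815744 estimated counts in genes, and each member had between 196 (Bcl3) and 34696 (Nfkbia) counts in a library. Epithelial markers (9 genes such as Epcam and Krt19) summed to between 14648 and 25897 CPM in every library, in keeping with the label, against 14.6 to 67.7 CPM for 10 endothelial markers, 355 to 1251 CPM for 13 fibroblast markers and at most 6.06 CPM for 8 neutrophil and 0.578 CPM for 9 lymphocyte markers. The sum of 12 macrophage markers was 230 to 470 CPM, of which Cd14 made 58.9% to 86.8%. Of the other macrophage markers, Mrc1 reached 66.7 CPM, Lyz2 27.3, Cd68 22.1 and Csf1r 10.2 CPM, while Adgre1, C1qa, C1qb and C1qc were at most 0.792, 2.57, 4.34 and 2.51 CPM. Between the groups, 10 of 13 fibroblast markers had a log2 fold change below 0 (median -0.54), 4 of them at an unadjusted p under 0.05 in edgeR (Col1a1, Col1a2, Dcn and Mmp2), and none of the other 3 reached that p. Of 10 macrophage markers tested, 6 were below 0, all at an unadjusted p under 0.05, and 1 of the other 4 was higher at that p (Mertk), with a median of -0.86. In a bulk library, fewer cells of a type and less RNA per cell cannot be told apart.

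Per length, Nfkbia was the most abundant member, with a mean of 588 TPM (transcripts scaled by length and library total) over the 10 libraries. Icam1 followed with 86.9 TPM and Rela with 54.1 TPM. Nfkbia exceeded Icam1 in 10 of 10 libraries, and Icam1 exceeded Rela in 9 of 10. Nfkb2 and Birc3 had nearly the same mean, 24.0 and 23.8 TPM, and Nfkb2 was the higher in 5 of 10 libraries, 4 of them with Egfr WT PSCs. Nfkb1 (16.8 TPM), Bcl3 (14.8 TPM) and Tnfaip3 (13.6 TPM) came next, and the first exceeded the second in 7 libraries and the second the third in 6, so these neighbours were not separated. Rel (6.35 TPM) and Relb (5.27 TPM) were lowest, with Rel above Relb in 7 of 10 libraries. Rela was therefore the most abundant of the subunits, and its level stood above that of Nfkb2 in every library.

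Among the subunits, Rela encodes p65, which carries a transactivation domain and pairs with the product of Nfkb1. Rela measured 82.2, 87.8, 84.0, 79.6 and 96.0 CPM in Egfr WT PSC replicates 1 to 5 and 85.2, 81.1, 86.5, 90.2 and 83.3 CPM in Egfr KO PSC replicates 1 to 5. All 10 libraries lay close together and the groups overlapped throughout. The coefficient of variation was 7.40% in the WT and 4.0% in the KO libraries, against 4.85% and 7.51% for Birc3, and the log2 fold change (KO over WT, as for all below) was -0.01 (95% interval -0.19 to 0.17, edgeR adjusted p = 0.981).

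Nfkb1 encodes p105, which is processed to the DNA-binding subunit p50. Nfkb1 measured 21.5, 32.7, 24.5, 27.6 and 38.9 CPM in WT replicates 1 to 5 and 20.2, 25.4, 41.9, 33.6 and 22.8 CPM in KO replicates 1 to 5. The highest library was KO replicate 3 and the next WT replicate 5, and the groups overlapped. Its log2 fold change was -0.01 (interval -0.49 to 0.46, edgeR adjusted p = 0.993), and it ran from -0.18 to 0.11 when single libraries were left out.

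Rel encodes c-Rel, a subunit best known from lymphocytes, and only 1 of the quantified transcripts was matched to it. Rel measured 45.2, 28.5, 39.9, 35.4 and 33.0 CPM in WT replicates 1 to 5 and 38.1, 24.9, 30.1, 26.7 and 32.7 CPM in KO replicates 1 to 5. WT replicates 1 and 3 were highest, and the groups overlapped. Its log2 fold change of -0.26 had an adjusted p far above the threshold (interval -0.59 to 0.08, edgeR adjusted p = 0.700).

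Relb and Nfkb2 form the dimer of the noncanonical arm, in which the p100 product of Nfkb2 is cut to p52. Relb measured 5.74, 6.04, 6.10, 5.59 and 9.67 CPM in WT replicates 1 to 5 and 4.66, 5.70, 8.42, 6.21 and 5.02 CPM in KO replicates 1 to 5. WT replicate 5 and KO replicate 3 were the highest of their groups, and the remaining libraries overlapped. Relb had a log2 fold change of -0.14 (interval -0.62 to 0.33, edgeR adjusted p = 0.886), which turned to 0.03 without WT replicate 5. Nfkb2 measured 60.5, 53.8, 62.6, 58.6 and 40.6 CPM in WT replicates 1 to 5 and 43.1, 47.2, 54.6, 43.6 and 19.7 CPM in KO replicates 1 to 5. WT replicate 5 was the lowest of its group here, in contrast to Relb, and KO replicate 5 stood far below the others. For Nfkb2 the log2 fold change was -0.41 (interval -0.90 to 0.09, edgeR adjusted p = 0.674), and it was -0.22 without KO replicate 5.

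Of the feedback targets, Nfkbia encodes IkB-alpha, which takes NF-kB back out of the nucleus. Nfkbia measured 494, 480.1, 402, 432 and 801 CPM in WT replicates 1 to 5 and 351, 320.1, 649, 603 and 322 CPM in KO replicates 1 to 5. WT replicate 5 and KO replicates 3 and 4 were the highest, and the groups overlapped. The log2 fold change was -0.22 (interval -0.76 to 0.33, edgeR adjusted p = 0.853), and without WT replicate 5 it was -0.01.

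Tnfaip3 encodes A20, an enzyme that edits ubiquitin chains and shuts off signalling below the TNF receptor. Tnfaip3 measured 41.2, 36.5, 31.8, 33.2 and 88.7 CPM in WT replicates 1 to 5 and 23.1, 22.7, 55.1, 30.6 and 23.9 CPM in KO replicates 1 to 5. WT replicate 5 was 2.49 times the mean of the other WT libraries and KO replicate 3 was 2.20 times the mean of the other KO libraries. The groups overlapped, with KO replicate 3 above 4 of the WT libraries. The log2 fold change over all 10 libraries was -0.57 (interval -1.29 to 0.14, edgeR adjusted p = 0.682). It was -0.20 without WT replicate 5, -0.88 without KO replicate 3 and -0.50 without both (edgeR adjusted p = 0.238).

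Bcl3 encodes an IkB-like protein that works in the nucleus with p50 and p52 dimers. Bcl3 measured 7.46, 12.9, 9.01, 10.3 and 17.4 CPM in WT replicates 1 to 5 and 8.46, 7.05, 13.1, 7.14 and 4.58 CPM in KO replicates 1 to 5. WT replicate 5 was again the highest, KO replicate 5 was the lowest, and the groups overlapped. For Bcl3 the log2 fold change was -0.50 (interval -1.13 to 0.13, edgeR adjusted p = 0.684), -0.30 without WT replicate 5 and -0.74 without KO replicate 3.

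Birc3 encodes cIAP2, a ubiquitin ligase in the TNF receptor complex. Birc3 measured 37.7, 36.5, 35.1, 38.0 and 39.97 CPM in WT replicates 1 to 5 and 31.7, 34.0, 28.2, 34.0 and 31.3 CPM in KO replicates 1 to 5. Every KO library lay below every WT library, with a small gap between them. For Birc3 the log2 fold change was -0.23 ± 0.09 (SE, interval -0.44 to -0.03), with edgeR's unadjusted p at 0.0279 and its adjusted p at 0.554, so it failed the correction. DESeq2 gave an adjusted p of 0.434.

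Icam1 measured 224, 149.5, 222, 144 and 167 CPM in WT replicates 1 to 5 and 126, 110.2, 110.4, 76.2 and 123 CPM in KO replicates 1 to 5. All 5 KO libraries lay below all 5 WT libraries, and WT replicates 1 and 3 were the highest. The log2 fold change was -0.73 ± 0.17 (SE, interval -1.10 to -0.37), which is 0.601 of the level with Egfr WT PSCs. Its unadjusted p of 0.000956 ranked 45 of 17495, and the edgeR adjusted p was 0.366, so this difference too failed the correction. DESeq2 called Icam1 (adjusted p = 0.0329), the only member it called, where it called 0.403% of 21855 genes as lower, and limma voom did not (adjusted p = 0.179). Over all alternatives the adjusted p of Icam1 ran from 0.0329 to 0.755, and its log2 fold change with single libraries left out from -0.81 to -0.63. Endothelial cells, fibroblasts and macrophages can also express Icam1. Markers of all 3 were lower in part with Egfr KO PSCs: besides the fibroblast and macrophage counts above, all 10 endothelial markers had a log2 fold change below 0, with a median of -0.26 and none at an unadjusted p under 0.05. With a marker sum as a covariate the log2 fold change of Icam1 was -0.75 (endothelial, edgeR adjusted p = 0.184), -0.73 (fibroblast, 0.515) and -0.75 (macrophage, 0.198). Taking the macrophage sum without Cd14 gave -0.63 (edgeR adjusted p = 0.525). Col3a1, which reached 1071 CPM within the fibroblast sum, had a log2 fold change of 0.21, while 10 of 13 fibroblast markers were below 0. The part of RNA from these 3 cell types in the difference of Icam1 was not tested.

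**Figure D2:**
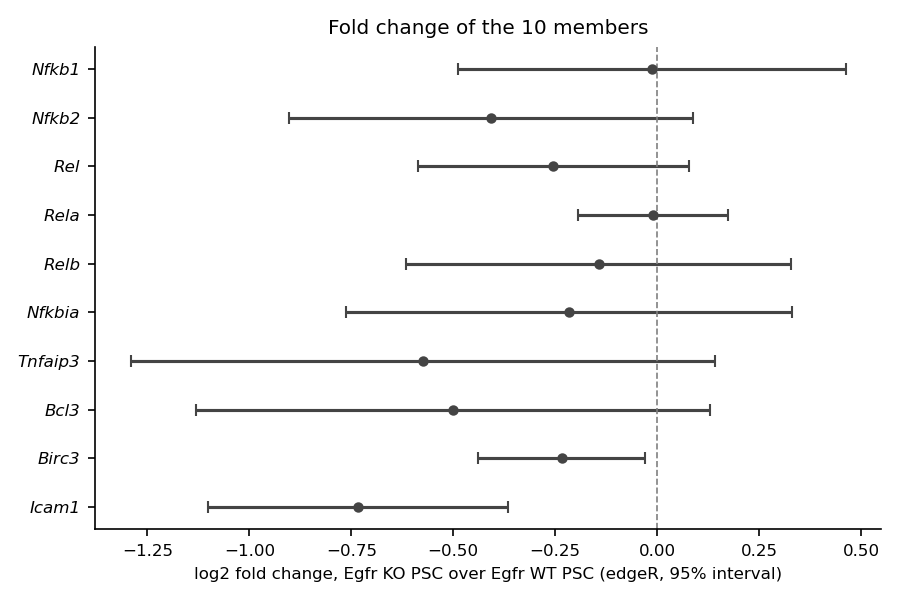
Log2 fold change, KO over WT PSC (horizontal axis), for the 10 members, with the 95% interval computed from edgeR's F statistic as bars, 5 libraries per group. All 10 estimates lie below 0, and the intervals of Birc3 (-0.44 to -0.03) and Icam1 (-1.10 to -0.37) do not reach it. The intervals are not corrected for multiple testing, and neither gene passed edgeR's correction.

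All 10 members had a log2 fold change below 0, against 8733 of all genes tested (49.9%), and their median was -0.24, against 0.00041 over all genes. Members are not independent of each other, and they share the libraries, so this count is a description. Birc3 and Icam1 were lower at an unadjusted p under 0.05, where 805 of 17495 genes were (4.6%). The same 2 had every KO library below every WT library, which held for 130 genes (0.743%), and no member had every KO library above, which held for 136 genes (0.777%). The direction of Nfkb1, Rela, Relb, Nfkbia and Tnfaip3 turned when the macrophage marker sum was added as a covariate, which left 5 of 10 members lower, with Bcl3 at -0.03 (edgeR adjusted p = 0.978). Cd14 made 58.9% to 86.8% of that sum. Its own log2 fold change was -0.54 (edgeR unadjusted p = 0.0217), so that covariate was partly tied to the group. With the endothelial sum as a covariate 7 were lower, and Nfkbia was at -0.02 and Tnfaip3 at -0.25. With the macrophage sum taken without Cd14 all 10 were lower. Cd14 and Mrc1 together made 83.5% to 94.1% of the macrophage sum. The sum without Cd14 mixed markers of both directions. Mrc1, at up to 36.6 CPM in WT and 66.7 CPM in KO libraries, had a log2 fold change of 0.54. Those of Cd68, Csf1r and Mertk were 0.15, 0.27 and 0.68. For Adgre1, C1qa, C1qb, C1qc and Lyz2 they were between -2.17 and -1.17. The part of macrophage or endothelial RNA in the levels of the members was not tested.

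Among themselves the members fell into those that were high in WT replicate 5 and KO replicate 3 and those that were not. WT replicate 5 held the highest value of 6 members (Rela, Relb, Nfkbia, Tnfaip3, Bcl3 and Birc3), and KO replicate 3 was among the 2 highest libraries for 5 (Nfkb1, Relb, Nfkbia, Tnfaip3 and Bcl3). For Icam1, Rel and Nfkb2, WT replicates 1 and 3 were the 2 highest. Over the 10 libraries, 8 of 45 pairs of members were correlated at an adjusted permutation p under 0.05, all positively. Relb and Tnfaip3 had Pearson r = 0.92 (permutation p = 0.00053, adjusted 0.00596) and Spearman rho = 0.70 (permutation p = 0.0311, adjusted 0.183). For Nfkbia and Tnfaip3, r was 0.90 (permutation p = 0.00019, adjusted 0.00596) and rho was 0.87 (permutation p = 0.00224, adjusted 0.0885). For Rel and Icam1, r was 0.78 (permutation p = 0.00882, adjusted 0.0496) and rho was 0.79 (permutation p = 0.00983, adjusted 0.0885). The other pairs were Relb with Nfkbia (r = 0.87), Nfkb1 with Relb (0.86), Nfkb1 with Nfkbia (0.82), Tnfaip3 with Bcl3 (0.80) and Rela with Nfkbia (0.76). Icam1 did not follow Nfkbia (r = -0.01, permutation p = 0.969, adjusted 0.969, rho = 0.19, permutation p = 0.606, adjusted 0.757).

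With group means removed, 6 of the 8 pairs still passed, with r = 0.91 for Nfkbia and Tnfaip3 and 0.94 for Relb and Tnfaip3. Rel with Icam1 (r = 0.74) and Tnfaip3 with Bcl3 (r = 0.74) did not, each with an adjusted permutation p of 0.074. How many pairs passed depended on which libraries were used, and fewer libraries also leave the test less power. A further check left out, for each pair separately, the 2 libraries farthest from the median of its first gene. No pair passed in that exact test over 8 libraries: r was 0.62 for Relb and Tnfaip3, 0.76 for Nfkbia and Tnfaip3 and 0.70 for Rel and Icam1. No pair passed without WT replicate 5 either, where r was 0.83 for Relb and Tnfaip3 and 0.85 for Nfkbia and Tnfaip3. No pair passed with Spearman's rho. Marker sums of other cells moved with these libraries only in part. The endothelial sum was highest in KO replicate 3 (67.7 CPM) and WT replicate 5 (50.4 CPM), against 14.6 to 42.3 CPM in the others. The acinar sum was 433 CPM in WT replicate 5, 422 CPM in KO replicate 3 and 498 CPM in KO replicate 4. The macrophage sum was highest in WT replicate 5 (470 CPM), but KO replicate 3 (341 CPM) lay below WT replicates 2 (375 CPM) and 3 (352 CPM). The fibroblast sum was highest in KO replicate 1 (1251 CPM), with 947 CPM in WT replicate 5 and 514 CPM in KO replicate 3. The part of other cells in the levels of Relb, Nfkbia, Tnfaip3 and Bcl3 was not tested.

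**Figure D3:**
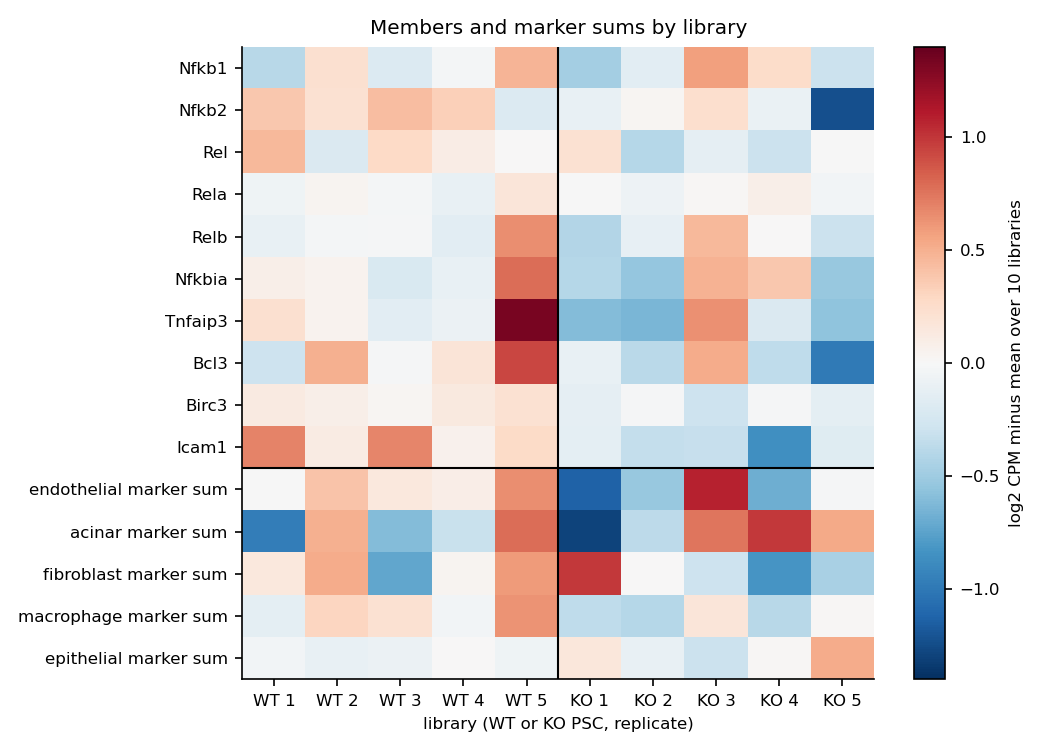
Log2 CPM minus the mean over the 10 libraries (colour, red above and blue below) for the 10 members and 5 summed marker lists (rows) in each library (columns, WT or KO PSC with replicate). WT replicate 5 and KO replicate 3 are red for Nfkb1, Relb, Nfkbia, Tnfaip3 and Bcl3 and for the endothelial and acinar sums, and Icam1 is reddest in WT replicates 1 and 3.

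The genes whose pattern was most like that of a member were found by Pearson's r of log2 CPM over the 10 libraries among 9992 genes, as a description. For Nfkbia they were Ifrd1 (r = 0.97), Irf2bp2 (0.97) and the chemokine gene Cxcl1 (0.96). For Tnfaip3 they were Ifrd1 (0.95), Gclm (0.95), which encodes a subunit of the enzyme that starts glutathione synthesis, and Faf1 (0.93). For Icam1 they were Fam149a (0.96), Atp1b1 (0.95), a subunit of the sodium pump, and Clic4 (0.94). Ifrd1 was thus shared by the lists of Nfkbia and Tnfaip3, and none by those and the list of Icam1.

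Most of the level of 9 members came from transcripts annotated as protein coding in GENCODE M21, which is not on the build of the quantification. Nfkb1 was the exception, with 46.7 ± 5.18% of its TPM in coding transcripts in the WT libraries and 44.7 ± 7.43% in the KO libraries (SD, n = 5 each, the WT value first in what follows). The transcript Nfkb1-207, annotated for nonsense-mediated decay, held 24.9 ± 5.53% and 24.5 ± 4.73%. In Nfkbia, Nfkbia-202 with a retained intron held 25.6 ± 1.04% and 25.5 ± 2.03%, a share that varied little while the level of the gene varied 2.50-fold among libraries. Icam1 was 97.8 ± 0.376% and 97.6 ± 0.449% coding, so its difference lay in its coding transcript, with 107 ± 26.8 TPM and 62.6 ± 10.5 TPM. The main coding transcript of Birc3 held 74.2 ± 2.29% and 74.3 ± 4.66%. In Relb, the retained-intron transcript Relb-206 held 2.42 ± 3.33% and 11.0 ± 3.77%, and Relb-208 held 4.001 ± 2.73% and 0.537 ± 0.738%, at levels below 1 TPM. The division of reads among overlapping transcripts is estimated by the quantification and is uncertain.

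**Figure D4:**
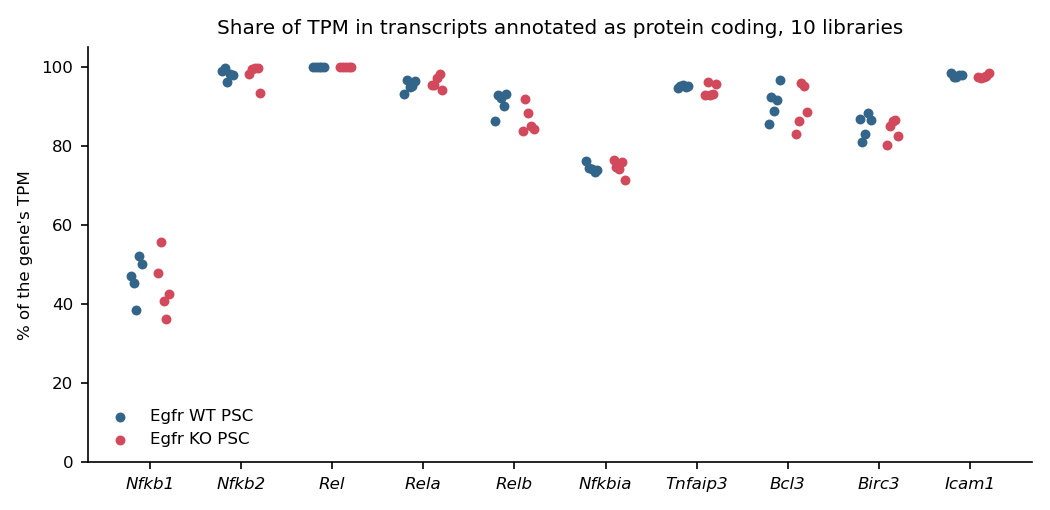
Percent of each member's TPM in transcripts annotated as protein coding (vertical axis, from 0) in the 5 libraries with Egfr WT PSCs (blue) and the 5 with Egfr KO PSCs (red). Nfkb1 lies between 36.3% and 55.7% and Nfkbia between 71.3% and 76.5%, and the groups overlap in every gene with more than 1 transcript.

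The rest of the pathway was read from 6 further lists with 90 genes, of which 87 were tested. None was called by edgeR. Of the 87, 54 had a log2 fold change below 0 and 33 above it, with a median of -0.03, and 10 were lower and 1 higher at an unadjusted p under 0.05, against 4.6% of all genes lower and 3.55% higher. The 4 other IkB proteins were all below 0 (median -0.13), none at an unadjusted p under 0.05. Nfkbiz, a nuclear IkB protein, measured 70.6, 89.4, 71.3, 71.7 and 149 CPM in WT replicates 1 to 5 and 72.1, 58.5, 106, 76.8 and 49.6 CPM in KO replicates 1 to 5. WT replicate 5 and KO replicate 3 were high, as for Nfkbia and Tnfaip3. Its log2 fold change was -0.32 (edgeR adjusted p = 0.766), and those of Nfkbie and Nfkbid were -0.18 and -0.08.

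The 13 kinases and kinase cofactors upstream of NF-kB lay close to 0, with 7 below it, 6 above and a median of -0.0035. Those of lowest p were Map3k7 (0.22), which encodes TAK1, Tbk1 (0.17) and Tab2 (-0.14), all log2 fold changes. Of 23 adaptors and ubiquitin enzymes, 15 were below 0 and 8 above (median -0.03). Myd88, the adaptor of Toll-like and IL-1 receptors, had a mean of 76.3 ± 11.4 CPM in the WT and 61.0 ± 8.53 CPM in the KO libraries (edgeR adjusted p = 0.557), and Zc3h12a and Tradd had log2 fold changes of -0.27 and -0.41.

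Of 14 receptors, 7 were below 0 and 7 above (median 0.03). Tnfrsf12a, the receptor of TWEAK, measured 442, 521, 487, 510.1 and 527 CPM in WT replicates 1 to 5 and 664, 558, 674, 753 and 705 CPM in KO replicates 1 to 5. Every KO library lay above every WT library, the opposite of Icam1. Its log2 fold change was 0.43 (interval 0.21 to 0.65, edgeR adjusted p = 0.366, DESeq2 adjusted p = 0.0227). Tlr2, a receptor for bacterial lipoproteins, had a log2 fold change of -0.59 (edgeR adjusted p = 0.604) and Tnfrsf11a, the receptor RANK, one of -0.44 (edgeR adjusted p = 0.637).

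Of 12 ligands, 9 were tested, with 7 below 0, 2 above and a median of -0.59. Tnfsf11, Tnfsf14 and Cd40lg did not pass the filter. Il33, an alarmin of epithelial nuclei, had a mean of 297 ± 120 CPM in the WT and 143 ± 65.3 CPM in the KO libraries (edgeR adjusted p = 0.457). Il18 had a mean of 20.6 ± 12.0 and 9.56 ± 6.35 CPM (edgeR adjusted p = 0.557). Ltb, which encodes lymphotoxin beta, had a mean of 2.43 ± 1.46 and 1.03 ± 0.440 CPM (edgeR adjusted p = 0.498). The libraries of the 2 groups overlapped for each of these 3 ligands.

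Of 24 other target genes, 14 were below 0 and 10 above (median -0.12), and 5 were lower and none higher at an unadjusted p under 0.05, where all genes gave 4.6% and 3.55%. The 2 with no overlap between the groups, Vcam1 and Csf1, stand against 0.743% of all genes with every KO library below every WT library. Vcam1, an adhesion molecule with a role like that of Icam1, measured 112, 76.5, 127, 91.6 and 96.9 CPM in WT replicates 1 to 5 and 16.7, 74.8, 56.2, 47.5 and 48.7 CPM in KO replicates 1 to 5. All KO libraries lay below all WT libraries, by a narrow gap in KO replicate 2, and KO replicate 1 was far the lowest. Vcam1 had a log2 fold change of -1.05 (interval -1.71 to -0.39, edgeR adjusted p = 0.440). Csf1, a growth factor for macrophages, also had no overlap, with means of 9.27 ± 2.70 and 4.56 ± 0.788 CPM (log2 fold change -1.03, edgeR adjusted p = 0.347, DESeq2 adjusted p = 0.00597). Irf1, an interferon-related factor, had means of 95.2 ± 13.7 and 71.6 ± 10.9 CPM (edgeR adjusted p = 0.471).

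**Figure D5:**
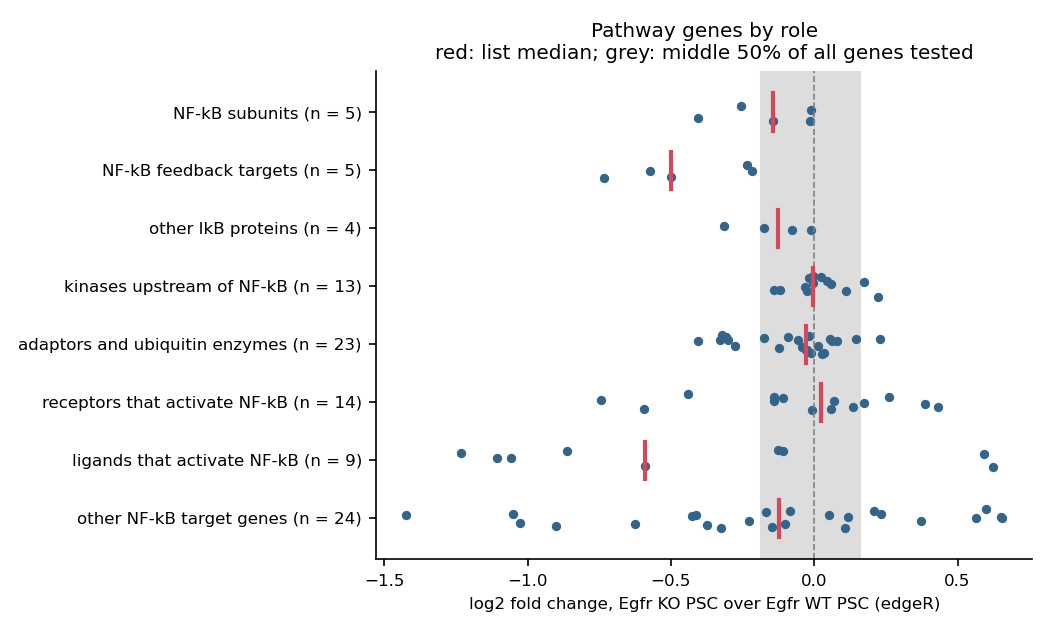
Log2 fold change, KO over WT PSC (horizontal axis), of each tested gene (points) in 8 lists of the pathway by role (rows), with the list median in red and the middle 50% of all 17495 genes in grey. The kinases lie close to 0, and the 5 feedback targets (median -0.50) and the 9 ligands (median -0.59) lie lowest.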

How the data were processed

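The authors deposited 1 Salmon 1.9.0 quantification per library (10 libraries), built on GRCm39 per the submitters' processing notes, with estimated counts and TPM (scaled by length and library total) for 147828 transcripts. Transcripts were assigned to genes by identifier with GENCODE M21, and 137063 (92.72%) matched, with 98.07% to 98.69% of the counts. GENCODE M21, which is not on the build of the quantification, also gave the gene names and transcript types. Unmatched transcripts were left out. Deposited estimated counts and TPM were each added up over the transcripts of a gene, and the counts rounded. The 2 groups were compared with the quasi-likelihood test of edgeR 4.0.16 (TMM, default filter with minimum count 10, no covariate) in R 4.3.3, Benjamini-Hochberg over 17495 genes. CPM are TMM-scaled. Other fits used DESeq2 1.42.0 and limma 3.58.1 (voom, and log2(TPM + 0.1)). Correlations between members used 100000 permutations and adjustment over 45 pairs. The members and gene lists were chosen with earlier results of these data known. Named were all members, from each other list the 3 genes of lowest p, and for Nfkbia, Tnfaip3 and Icam1 the 3 genes most alike. Scripts were tested on simulated data. Library preparation used more PCR cycles for less RNA per the labels' protocols, without saying which libraries had less. The labels pair no libraries.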

Additional observations from a re-analysis of the deposited data

Results flagged for a closer look

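In groups of 5 libraries, a value was singled out where its gap to the nearest other value, divided by the range of the group, exceeded Dixon's critical value of 0.71. Among 56 groups examined (members and named pathway genes in each group), 5 values were singled out, where chance gives about 1 in 20 groups. In Egfr WT PSC replicate 5, Relb was 9.67 CPM (others 5.59 to 6.10), Nfkbia was 801 CPM (402 to 494), Tnfaip3 was 88.7 CPM (31.8 to 41.2) and Nfkbiz was 149 CPM (70.6 to 89.4). In Egfr KO PSC replicate 3, Tnfaip3 was 55.1 CPM, against 22.7 to 30.6 CPM in the others. The 4 high values of WT replicate 5 come from 1 library and are not independent.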

How the results depend on the processing

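The number of genes called was 0 with edgeR, 129 with DESeq2, 3 with voom (Id3, Ifi27 and Onecut3), 1 without the expression filter and 1 on log2(TPM + 0.1) (Ifi27 in both), 1 with the endothelial sum as covariate (A630076J17Rik), and 0 to 4 with single libraries left out: 2 without WT replicate 5 (Gm15663 and Ifi27), 4 without KO replicate 1 (Fabp7, Ifi27, Onecut3 and Rgs13) and 1 without KO replicate 3 (Id3). These names were taken after the values were seen. Of the members, DESeq2 called 1 (Icam1), and no other alternative called any. Nfkb2, Rel, Bcl3, Birc3 and Icam1 kept their direction in every alternative, though Bcl3 went from -0.5008 to -0.0272 with the macrophage sum as covariate. With the endothelial sum Nfkbia went from -0.2164 to -0.0245 and Tnfaip3 from -0.5741 to -0.2484. The log2 fold change turned positive with the macrophage sum as covariate for Nfkb1 (0.334), Rela (0.063), Relb (0.1992), Nfkbia (0.1084) and Tnfaip3 (0.0162), and with the endothelial sum for Nfkb1 (0.2021), Rela (0.0083) and Relb (0.0538). For Rela it also did with voom (0.0289), with the number in the library name as a factor (0.0041) and without WT replicate 5 and KO replicate 3 (0.0333). With single libraries left out it ran from -0.179 to 0.1131 for Nfkb1, from -0.0379 to 0.0308 for Rela and from -0.2868 to 0.0312 for Relb. The cause was not tested. The fits with the endothelial sum, with the macrophage sum without Cd14, without both high libraries, and the correlations without single libraries were added after seeing the data. The 8 correlated pairs became 0 with Spearman's rho and 0 without the 2 libraries farthest from the median of each pair's first gene. They became 0 to 8 with single libraries left out, the lowest without WT replicate 5. By CPM in place of TPM, 5 of 10 members kept their place in the order of levels. All members had at least 196 counts in each library, and whether depth limited any result was not tested.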
